A study of Mus musculus with 18 samples.

Results

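Protein processing in the endoplasmic reticulum (ER) is a KEGG pathway, and 144 of its genes, as annotated in the deposited table, were expressed in L929 cells and are described here. Of the 57180 genes of the table, 168 carried that pathway. Among these, 19 did not reach 10 counts in at least 3 of the 18 libraries, and 5 genes that other stress responses share (Atf4, Ddit3, Ppp1r15a, Bax and Bak1) were set aside by name, which left 144. All 144 passed the expression filter of the test, although Hspa1a, Gm49320, Cryab and Sec31b never exceeded 46 counts in a library. The rule used the annotation, the count minimum and these names, and no measured difference between groups, although earlier results of these data were known when it was made.

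The ER folds, glycosylates and exports proteins of the secretory pathway. When unfolded proteins build up in its lumen, the sensors IRE1 (Ern1), PERK (Eif2ak3) and ATF6 start the unfolded protein response, which raises the ER chaperones and the machinery of ER-associated degradation (ERAD) and, through PERK, slows translation. PERK shares its target, the initiation factor eIF2α, with GCN2, the kinase that senses a shortage of amino acids, and both lead to ATF4 and its target Ddit3 (CHOP). A rise of Ddit3 therefore does not tell an amino acid shortage from ER stress. The ER chaperones are known as targets of the ATF6 and XBP1 arms, and whether their mRNA tells these stresses apart was not tested.

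L929 is a mouse fibroblast line, wild type here, and 6 groups of 3 independent cultures were profiled by bulk RNA-seq. Mock cells received DMSO. The AOA group received 0.5 mM aminooxyacetic acid, an aminotransferase inhibitor that lowers cellular aspartate, and the AOA+Asp group received 0.5 mM AOA together with 20 mM aspartate. The other groups (HT-DNA, HT-DNA+AOA and HT-DNA+AOA+Asp) were transfected with 0.5 μg/ml herring testis DNA, which activates the DNA sensor cGAS, by lipofection for 6 h, without AOA, after 1 h of 0.5 mM AOA, or after AOA and with 20 mM aspartate. No group received aspartate alone, the hours under AOA of the groups without DNA are not stated, and whether Mock cells received the transfection reagent is not stated either, so the DNA and its carrier cannot be told apart.

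The libraries held 17901605 to 24057343 counts (median 20385838), and the 20 most abundant genes took 8.23% to 9.64% of them. Of 8 fibroblast markers, 7 reached 10 counts in some library, among them Col1a1, Col1a2 and Vim, and Thy1 had at most 4 counts. Of 12 markers of other cell types, 9 had at most 3 counts in every library, and apart from Cd68, at up to 3081 counts, the rest summed to 0.0467 to 0.770 CPM, counts scaled to the size of the library. The sum of the 12, nearly all of it Cd68, was 139 to 155 CPM in HT-DNA+AOA and 110.01 to 137 CPM in the other groups, and its part in the results was not tested. The 3 HT-DNA+AOA libraries stood apart by their spread: the median SD over the 144 genes was 0.192 on the log2(CPM + 0.5) scale against 0.0472 to 0.0944 in the other 5 groups. The counts of the 144 genes called in comparisons with HT-DNA+AOA and for the interaction are therefore also given without single HT-DNA+AOA replicates. The SD does not single out any of these libraries. For role lists such counts are given without replicate 3 only.

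Levels below are CPM scaled by TMM factors, given per library in the order of the replicates. Changes are log2 fold changes with their standard error (SE) from edgeR's quasi-likelihood test over all 18 libraries. A gene was called higher or lower where its p, adjusted by Benjamini-Hochberg over the 14263 genes tested, was under 0.05. In bulk RNA, fewer cells of a kind and less RNA per cell cannot be told apart.

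AOA alone moved 74 of the 144 genes, in both directions. Relative to Mock, 40 (27.8%) were higher, where 22.4% of all genes tested were, and 34 (23.6%) were lower (23.3% over all genes), with a median log2 fold change of 0.045 against 0.015 over all genes. In HT-DNA–transfected cells, AOA was followed by 29 (20.1%) higher (22.8% over all genes) and 37 (25.7%) lower (22.7%), with a median of -0.03 against 0.02. Without HT-DNA+AOA replicate 3 these were 38 higher and 49 lower (3754 and 3701 over all genes). They were 28 and 37 (3097 and 3343) without its replicate 1, and 22 and 29 (2871 and 2800) without its replicate 2. HT-DNA itself, relative to Mock, gave 46 (31.9%) higher (24.2% over all genes) and 38 (26.4%) lower (24.0%), a median of 0.04 against -0.008. With all 18 libraries and TMM scaling, the shares for AOA thus lay within a few percentage points of the background, and both directions were filled.

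Aspartate added to AOA moved a similar number. Relative to AOA alone, 45 genes (31.3%) were higher (23.5% over all genes) and 30 (20.8%) lower (22.8%), and in HT-DNA–transfected cells 49 (34.0%) were higher (23.7%) and 32 (22.2%) lower (23.9%). Without HT-DNA+AOA replicate 3, the counts in HT-DNA–transfected cells were 43 higher and 22 lower (3089 and 2889 over all genes). They were 53 and 40 (4071 and 3937) without its replicate 1, and 45 and 25 (2861 and 2925) without its replicate 2. Relative to Mock, the AOA+Asp group differed in 13 (9.03%) higher (2.52% over all genes) and 2 (1.39%) lower genes (3.95%). HT-DNA+AOA+Asp differed from HT-DNA in 42 (29.2%) higher (23.2%) and 29 (20.1%) lower genes (23.5%). Over the 7 comparisons, 129 of the 144 genes were called at least once, and 17 with a change of 1 or more on the log2 scale in either direction. The matching counts over all genes and 7 comparisons are not given here. For AOA relative to Mock, 4 of the 74 called members reached 1, where 1067 of the 6516 called over all genes did. For HT-DNA+AOA relative to HT-DNA it was 8 of 66, against 1461 of 6477. Among the genes called in none, named here after their values were seen, were Cryab, Derl1, Derl2, Ngly1, Os9, Rnf5, Rrbp1, Sar1a, Sec23b, Sec24b, Sec31b, Sec61a2, Ssr1 and Ube2d2a.

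**Figure D1:**
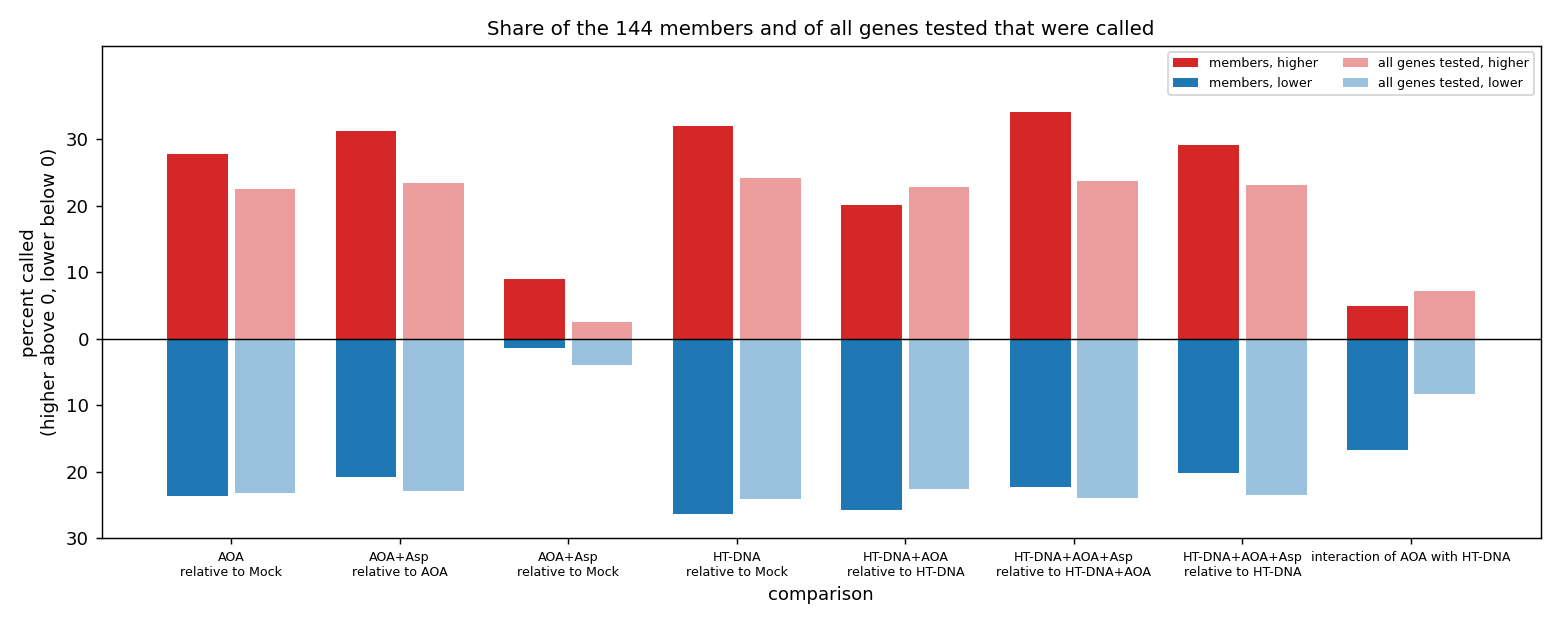
Percent of genes called higher (above 0) and lower (below 0) in each of the 7 comparisons and for the interaction of AOA with HT-DNA, for the 144 ER protein processing genes (dark bars) and for all 14263 genes tested (pale bars). The 13 genes higher in AOA+Asp than in Mock stand against a background of 2.52%, and the 24 lower for the interaction against 8.26%.

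The balance of higher and lower calls depended on the scaling. With library totals in place of TMM, the split became 20 higher and 45 lower for AOA relative to Mock (2124 and 4502 over all genes). It became 21 and 46 for HT-DNA+AOA relative to HT-DNA (2878 and 3618) and 29 and 51 for HT-DNA relative to Mock (2408 and 4437). For AOA+Asp relative to AOA it was 58 and 22 (4087 and 2484), and for HT-DNA+AOA+Asp relative to HT-DNA+AOA it was 61 and 20 (4194 and 2548). Lower calls thus came to outnumber higher ones for AOA and for HT-DNA relative to Mock, and in the other 3 the larger side stayed the larger. Under that scaling the median of all genes itself moved to -0.12 for AOA and to -0.12 for HT-DNA relative to Mock, and group medians near 0 changed sign with it. The genes also differed in composition: those higher with AOA had a median transcript length of 2845 bases and a GC content of 51.6%, and those lower had 4176 bases and 45.9%. Whether length and GC content contributed to the calls was not tested apart from a correction for both. It gave 53 higher and 35 lower for AOA relative to Mock (3873 and 3507 over all genes). For HT-DNA+AOA relative to HT-DNA it gave 30 and 57 (3615 and 3709), and for HT-DNA relative to Mock 50 and 32 (3246 and 2957). It gave 48 and 37 for AOA+Asp relative to AOA (3558 and 3609), and 52 and 33 for HT-DNA+AOA+Asp relative to HT-DNA+AOA (3578 and 3641). Named genes whose direction it reversed are listed at the end.

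The comparison asked whether the ER genes moved with the amino acid response, which gives the scale. Of 30 listed genes of that response, 29 were tested, and AOA raised 24 and lowered 2 of them (median log2 fold change 0.53), while in HT-DNA–transfected cells it raised 23 and lowered 1 (0.71). Ddit3, a proapoptotic transcription factor, lay at 47.02, 42.9 and 48.6 CPM in Mock and 348, 374 and 385 CPM in AOA (log2 fold change 3.0 ± 0.095, adjusted p = 3.5e-14). It lay at 38.9, 30.9 and 36.9 CPM in HT-DNA and 346, 397 and 417 CPM in HT-DNA+AOA (log2 fold change 3.44 ± 0.10, adjusted p = 4.9e-15), so that the groups with and without AOA did not overlap. With aspartate it was 101, 104 and 107 CPM, lower than with AOA alone but above Mock (log2 fold change 1.17 ± 0.091, adjusted p = 8.6e-08). Trib3, Chac1 and Asns, further ATF4 targets, rose with AOA by 1.17, 1.91 and 0.47 on the log2 scale, while Atf4 mRNA was called in neither AOA comparison (0.16 and -0.037).

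The levels of the lumenal ER chaperones were read beside that response, with no test of the difference between the lists. The mean log2 level of the 29 amino acid response genes, relative to the Mock mean, was 0.537 to 0.563 in the AOA libraries and -0.0077 to 0.053 in AOA+Asp. For the 15 lumenal chaperones, cochaperones and oxidoreductases it was -0.0253 to 0.0250 in Mock, 0.0632 to 0.0839 in AOA, above every Mock library, and 0.179 to 0.214 in AOA+Asp, above every AOA library. The separation of AOA from Mock is read under TMM scaling only. With library totals the median of all genes for AOA relative to Mock was -0.12, farther from 0 than these chaperone levels in AOA. In HT-DNA the chaperones lay at -0.123 to -0.0299, which overlapped with HT-DNA+AOA at -0.150 to -0.0750. In HT-DNA+AOA+Asp they lay at 0.131 to 0.156. The amino acid response lay at -0.202 to -0.180 in HT-DNA, 0.432 to 0.624 in HT-DNA+AOA and 0.0862 to 0.131 in HT-DNA+AOA+Asp.

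**Figure D2:**
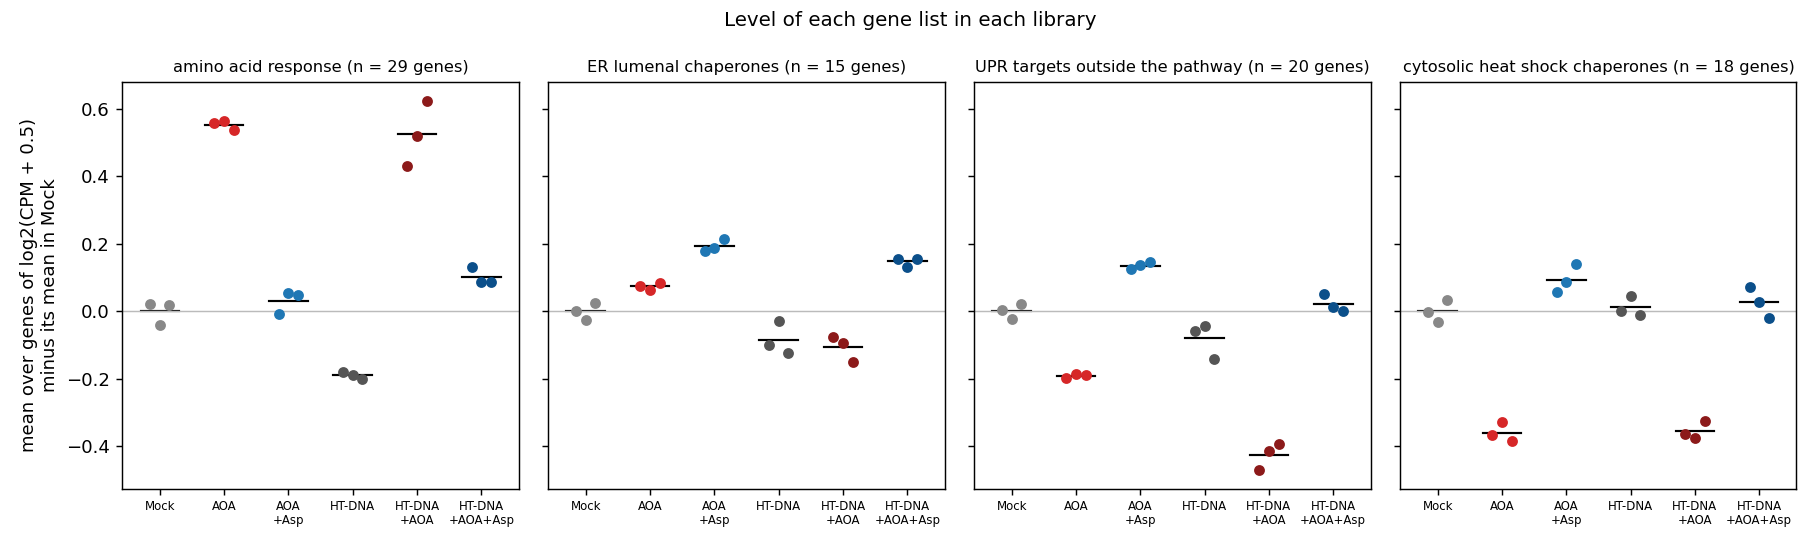
Mean log2(CPM + 0.5) of 4 gene lists in each library minus the Mock mean, with points for libraries and lines for group means: the amino acid response (29 genes), the lumenal ER chaperones (15), unfolded protein response targets outside the pathway (20) and the cytosolic heat shock chaperones (18). The amino acid response is highest in both AOA groups without aspartate, where the heat shock list is lowest, and the lumenal chaperones are highest in both groups with aspartate.

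The promoters of 119 of the 144 genes could be matched by symbol in RefSeq (GRCm38.p6; 250 bases before to 50 after the start site, both strands searched). The ER stress response element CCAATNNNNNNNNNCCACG, known as a binding site of ATF6 with NF-Y, was found in 7 of the 119 (5.88%) and in 37 of 27025 genes with a promoter (0.137%), and the shorter form (ATTGG and CCACG 1 base apart) in Herpud1 and Dnajb11 (1.68%, against 0.0444%). The sequences below are shown because these genes carry much of what follows. Capitals mark the motif, as given or as its reverse complement, read 5′ to 3′ on the gene's strand.
Hspa5, chr2:34772010-34772058, plus strand: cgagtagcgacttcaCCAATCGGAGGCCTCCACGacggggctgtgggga
Hsp90b1, chr10:86705518-86705566, minus strand: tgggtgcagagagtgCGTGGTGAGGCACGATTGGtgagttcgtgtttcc
Hsp90b1, chr10:86705623-86705671, minus strand: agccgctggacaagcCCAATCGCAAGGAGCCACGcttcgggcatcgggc
Dnajc3, chr14:118937812-118937860, plus strand: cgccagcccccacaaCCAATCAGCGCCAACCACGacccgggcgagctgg
Ero1b, chr13:12565667-12565715, plus strand: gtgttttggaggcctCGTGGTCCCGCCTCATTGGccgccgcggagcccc
Calr, chr8:84847060-84847108, minus strand: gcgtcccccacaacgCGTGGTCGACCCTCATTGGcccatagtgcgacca
Canx, chr11:50325785-50325833, minus strand: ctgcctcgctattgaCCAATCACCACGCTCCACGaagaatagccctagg
Syvn1, chr19:6046517-6046565, plus strand: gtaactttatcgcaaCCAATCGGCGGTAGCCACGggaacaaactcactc
Herpud1, chr8:94386362-94386402, plus strand: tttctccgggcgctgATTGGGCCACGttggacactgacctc
Apart from the shorter form in Herpud1, the capitals share the CCAAT and CCACG ends (or their complements) with 9 free bases between, and Hsp90b1 holds the element in both orientations. A match describes the letters only. Other motifs were found in few of the 119: the XBP1-type element TGACGTGG in 6 (5.04%, against 0.714%), the ATF4-type element TGATGNAAN in Herpud1, Map2k7, Txndc5 and Yod1 (3.36%, against 4.5%) and the heat shock element (GAA, TTC and GAA, each 2 bases apart) in Hsph1 and Sec62 (1.68%, against 0.662%).

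The 7 genes with the longer element did not share a direction with AOA. Hspa5 and Calr were higher and Dnajc3, Ero1b and Syvn1 lower than in Mock, with Canx and Hsp90b1 not called. Calr and Canx were named for the element, after their values were seen. With aspartate relative to AOA, 4 of the 7 were higher (23.5% over all genes) and none was lower (22.8%), and in HT-DNA–transfected cells 6 were higher (23.7%) and none was lower (23.9%).

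Hspa5 encodes BiP, the main ER chaperone, which keeps the sensors inactive until unfolded proteins bind it. It lay at 4052, 4027 and 4026 CPM in Mock, 5508, 5402 and 5494 in AOA and 5545, 5407 and 5761 in AOA+Asp. Both AOA groups thus lay above Mock without overlap (log2 fold change 0.44 ± 0.065, adjusted p = 2.6e-05 and log2 fold change 0.47 ± 0.065, adjusted p = 0.00017), and adding aspartate to AOA gave log2 fold change 0.027 ± 0.065, adjusted p = 0.76. In HT-DNA–transfected cells the levels were 4312, 4200.2 and 3810.2 CPM in HT-DNA, 4995, 4907 and 4334 in HT-DNA+AOA (log2 fold change 0.21 ± 0.065, adjusted p = 0.014) and 5719.6, 5311 and 5585 in HT-DNA+AOA+Asp. Unlike Ddit3, Hspa5 was therefore not lower with aspartate than without it in either background. The call for HT-DNA+AOA was lost with library totals, with a correction for GC content and transcript length (0.027), with no filter on low counts, with only the libraries compared, and without HT-DNA replicate 3 or HT-DNA+AOA replicate 2.

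Hsp90b1 (GRP94), the ER member of the HSP90 family, gave another pattern. Its levels were 3156, 3178 and 3273 CPM in Mock, 2980.3, 2967 and 3201 in AOA (log2 fold change -0.071 ± 0.10, adjusted p = 0.59) and 4615, 3961 and 4265 in AOA+Asp (log2 fold change 0.42 ± 0.10, adjusted p = 0.014). Pdia3 and Pdia4, protein disulfide isomerases, and Hyou1, the BiP exchange factor, were also higher in AOA+Asp than in Mock, at 0.24, 0.31 and 0.23 on the log2 scale. Their changes with AOA alone were 0.12, 0.19 and 0.14, of which that of Pdia4 was called. These calls were close to the threshold: that of Hsp90b1 was lost without Mock replicate 1 or 2 or AOA+Asp replicate 1, those of Pdia3 and Hyou1 when any 1 of the 3 Mock libraries was left out, and that of Pdia4 with AOA alone with library totals (0.062).

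The cochaperones and oxidases moved apart from each other. Dnajc3 (p58IPK), a BiP cochaperone known to inhibit PERK, fell from 124, 118 and 131 CPM in Mock to 84.2, 79.5 and 89.1 in AOA (log2 fold change -0.56 ± 0.088, adjusted p = 4.6e-05) and lay at 182, 163 and 179 in AOA+Asp, above both. Ero1a, the oxidase that recharges protein disulfide isomerase and a known CHOP target, rose with AOA from 285, 300.01 and 341 to 522, 470.2 and 465 CPM (log2 fold change 0.65 ± 0.13, adjusted p = 0.00038). HT-DNA alone lowered it to 152, 192 and 162 CPM (log2 fold change -0.87 ± 0.13, adjusted p = 4.7e-05), and HT-DNA+AOA held 561, 443 and 363 CPM (log2 fold change 1.44 ± 0.13, adjusted p = 4.4e-08). Its paralog Ero1b went the other way in both backgrounds, at -0.76 relative to Mock and -0.63 relative to HT-DNA, although 16.2% of its 31-base words occur in other transcripts and reads could be split. Sil1, a BiP exchange factor, rose with AOA alone (log2 fold change 0.43 ± 0.13, adjusted p = 0.009) and was not called after HT-DNA (log2 fold change -0.24 ± 0.13, adjusted p = 0.14).

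As a group, 6 of the 15 lumenal genes were higher (22.4% over all genes) and 2 lower (23.3%) with AOA (median log2 fold change 0.13, which turns to -0.006 with library totals), and 3 were higher (22.8% over all genes) and 6 lower (22.7%) with AOA after HT-DNA (-0.078). In AOA+Asp 6 were higher than in Mock (2.52% over all genes) and none was lower (3.95%), and in HT-DNA+AOA+Asp 9 were higher than in HT-DNA (23.2%) and 2 lower (23.5%). Of the remaining members, Dnajb11, Dnajc1, Dnajc10, Erp29, P4hb and Txndc5 stayed between -0.10 and 0.25 on the log2 scale with AOA, of which P4hb and Txndc5 were called.

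With AOA, the sensors Ern1 and Eif2ak3 moved in opposite directions at the mRNA level. Ern1 (IRE1α), the kinase and nuclease that splices Xbp1 mRNA, rose from 47.7, 44.3 and 40.1 CPM in Mock to 114, 99.2 and 86.2 in AOA (log2 fold change 1.18 ± 0.11, adjusted p = 1.3e-07), and lay at 46.4, 44.4 and 51.6 CPM with aspartate. After HT-DNA it rose from 32.5, 36.2 and 31.01 to 98.3, 77.8 and 73.8 CPM (log2 fold change 1.33 ± 0.11, adjusted p = 2.3e-08). The AOA groups did not overlap with their controls, and the levels with aspartate and no DNA overlapped with Mock (log2 fold change 0.11 ± 0.11, adjusted p = 0.64). After HT-DNA, aspartate left Ern1 above the level with HT-DNA alone (log2 fold change 0.57 ± 0.11, adjusted p = 0.00084).

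Eif2ak3 (PERK), the ER kinase of eIF2α, was the one that fell. It fell from 54.3, 47.5 and 52.8 CPM in Mock to 36.6, 33.02 and 28.5 in AOA (log2 fold change -0.65 ± 0.10, adjusted p = 3.3e-05) and from 36.2, 34.6 and 30.4 in HT-DNA to 20.8, 16.3 and 16.3 in HT-DNA+AOA (log2 fold change -0.92 ± 0.11, adjusted p = 9.0e-07). Aspartate brought it to 52.1, 52.7 and 53.6 CPM without DNA and to 48.7, 45.9 and 44.98 with DNA, and both rises were called (log2 fold change 0.69 ± 0.10, adjusted p = 2.0e-05 and log2 fold change 1.38 ± 0.10, adjusted p = 6.5e-09). HT-DNA alone also lowered it (log2 fold change -0.61 ± 0.10, adjusted p = 0.00011).

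Atf6, the membrane-bound transcription factor of the third arm, was called lower with HT-DNA (log2 fold change -0.62 ± 0.10, adjusted p = 8.1e-05) and higher with AOA after HT-DNA (log2 fold change 0.49 ± 0.10, adjusted p = 0.00044), and gave log2 fold change 0.015 ± 0.10, adjusted p = 0.91 with AOA alone. Its relative Atf6b rose with AOA alone (log2 fold change 0.35 ± 0.12, adjusted p = 0.021), a call lost with library totals and without Mock replicate 1 or 2 or AOA replicate 2 or 3. Mbtps1 and Mbtps2 are the proteases that cleave ATF6 in the Golgi. Mbtps2 fell with AOA (log2 fold change -0.38 ± 0.11, adjusted p = 0.0084), and Mbtps1 gave log2 fold change 0.068 ± 0.075, adjusted p = 0.48. Xbp1, whose spliced form drives ERAD and ER lipid genes, lay at 167, 168 and 173 CPM in Mock and 159, 172 and 162 in AOA, which overlapped (log2 fold change -0.045 ± 0.067, adjusted p = 0.62). In HT-DNA–transfected cells it fell with AOA from 192, 182 and 175 to 105, 109.9 and 125 CPM (log2 fold change -0.69 ± 0.068, adjusted p = 1.2e-07), and the counts do not separate its spliced from its unspliced form.

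**Figure D3:**
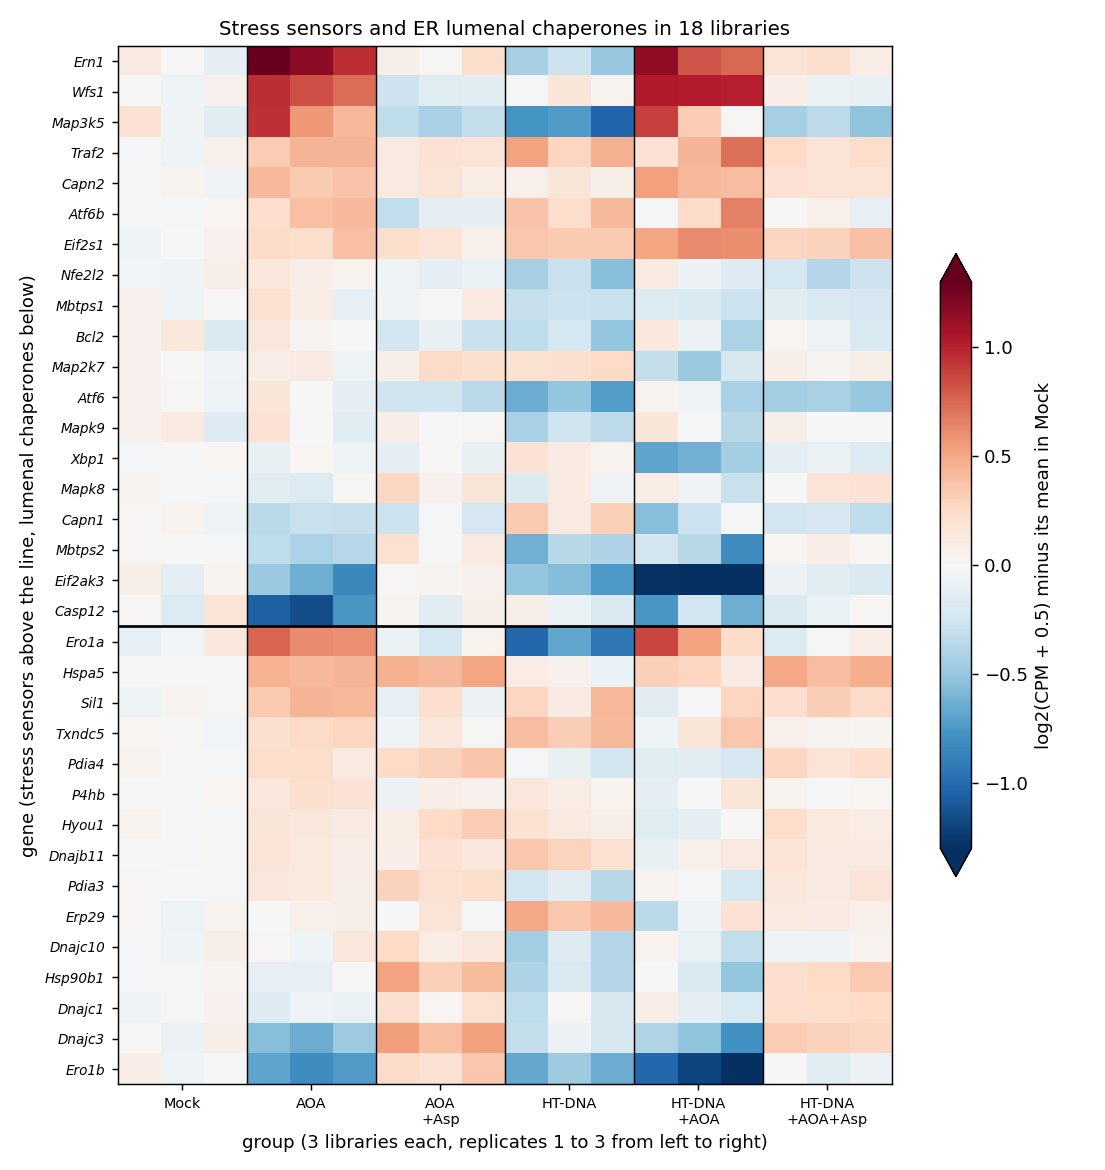
Log2(CPM + 0.5) of the 19 sensors, kinases and transcription factors (above) and the 15 lumenal chaperones, cochaperones and oxidoreductases (below) in each of the 18 libraries, minus each gene's Mock mean. Ern1 and Wfs1 are above every Mock library in both AOA groups without aspartate, Map3k5 is so in 5 of those 6 libraries, and Eif2ak3 and Ero1b are below every Mock library in all 6.

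Among the other signalling genes, Wfs1 (wolframin), an ER membrane protein that restrains ATF6, lay at 17.3, 16.6 and 17.99 CPM in Mock, 34.1, 31.3 and 28.96 in AOA (log2 fold change 0.86 ± 0.082, adjusted p = 1.1e-07) and 14.3, 15.4 and 15.7 in AOA+Asp. Map3k5 (ASK1), the kinase that links IRE1 and TRAF2 to JNK, rose with AOA in both backgrounds (log2 fold change 0.67 ± 0.17, adjusted p = 0.0032 and log2 fold change 1.32 ± 0.17, adjusted p = 5.2e-06) and fell with HT-DNA alone (log2 fold change -0.87 ± 0.17, adjusted p = 0.00067). Casp12, an ER-bound caspase, fell with AOA from 12.99, 11.4 and 14.5 to 5.90, 5.54 and 7.44 CPM (log2 fold change -1.05 ± 0.15, adjusted p = 1.1e-05) and also after HT-DNA (log2 fold change -0.49 ± 0.14, adjusted p = 0.0085). Its levels with aspartate, 13.2, 11.6 and 13.6 CPM, overlapped with Mock. Fitted on the libraries compared alone, the fall of Casp12 after HT-DNA was not called.

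The adaptor Traf2, the eIF2α gene Eif2s1 and the protease Capn2 rose with AOA by 0.41, 0.29 and 0.38, and the calpain Capn1 fell (log2 fold change -0.32 ± 0.10, adjusted p = 0.018), a call lost without Mock replicate 1 or 2 or AOA replicate 1. Mapk8 and Mapk9 (JNK1 and JNK2), Nfe2l2 (NRF2), Map2k7 and Bcl2 were not called with AOA alone. After HT-DNA, AOA raised Nfe2l2 and Mapk9 (0.38 and 0.29, the latter lost with library totals and without HT-DNA replicate 1 or 3 or HT-DNA+AOA replicate 1 or 2) and lowered Map2k7 (-0.56), a JNK kinase with 37.7% of its 31-base words in other transcripts. In all, 7 of the 19 genes were higher (22.4% over all genes) and 4 lower (23.3%) with AOA, and 8 were higher (22.8%) and 5 lower (22.7%) with AOA after HT-DNA.

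**Figure D4:**
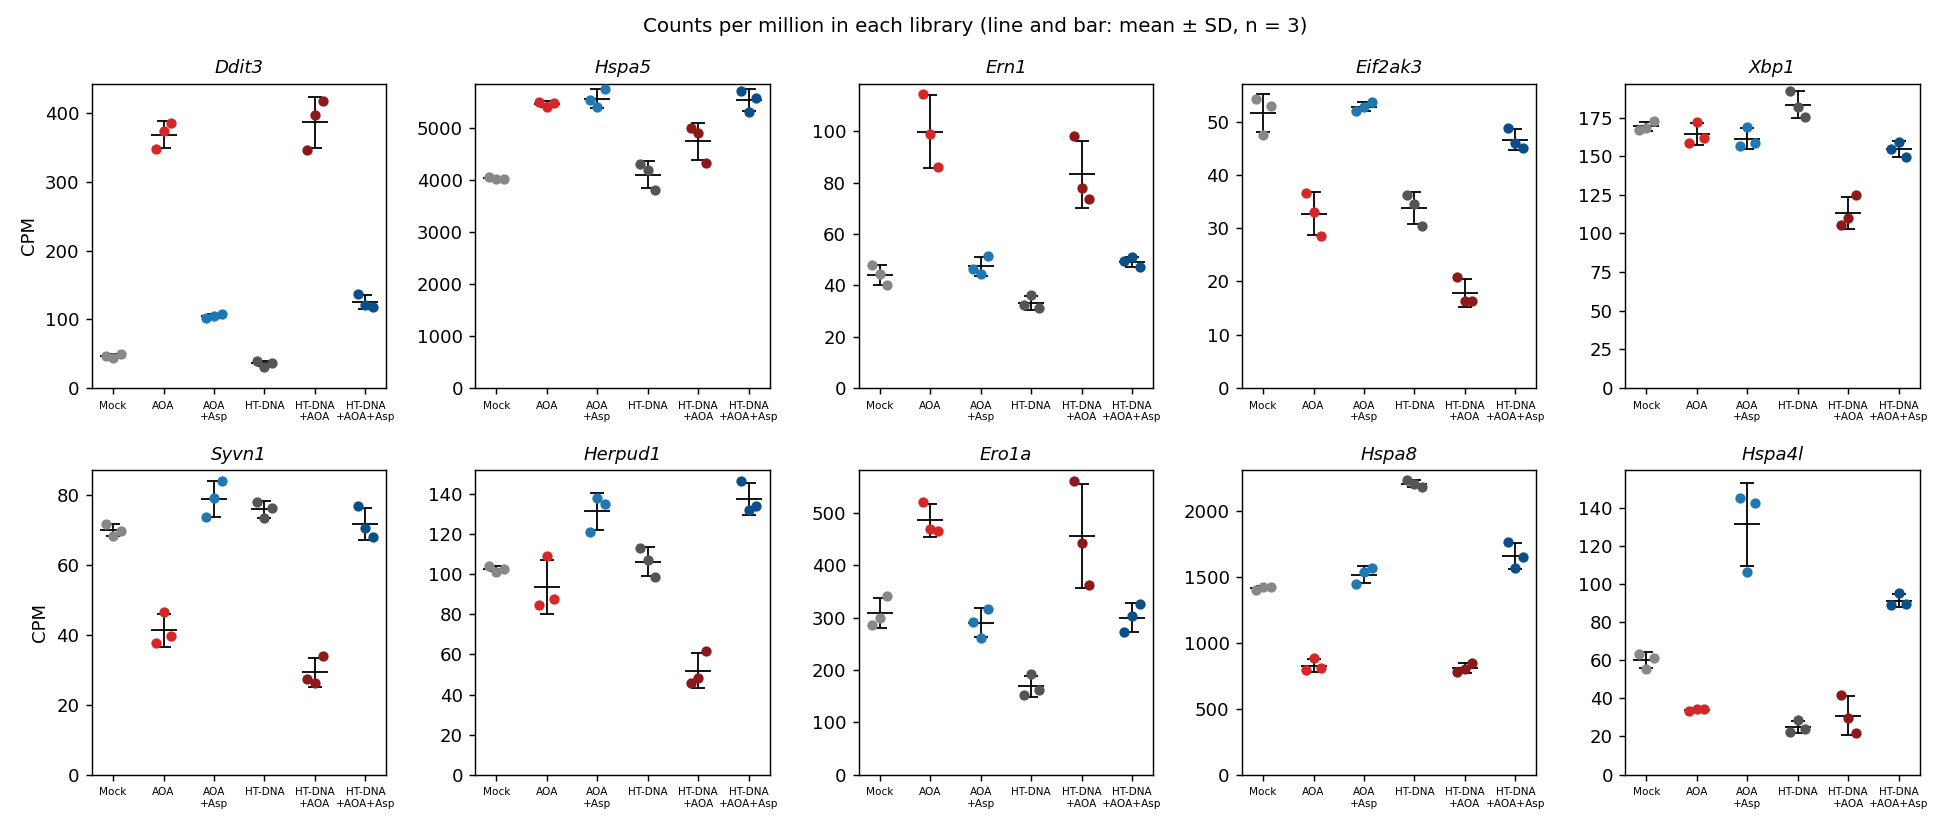
CPM of Ddit3 and 9 of the ER protein processing genes in each library, with points for libraries and lines and bars for the mean ± SD (n = 3), each panel on its own linear axis from 0. Ddit3 and Ern1 are highest in both AOA groups without aspartate, Eif2ak3 and Syvn1 are lowest in HT-DNA+AOA, and Hspa5 does not fall with aspartate.

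On the membrane side of ERAD, the central ligase fell with AOA and a conjugating enzyme rose. Syvn1 (HRD1), a ubiquitin ligase in the ER membrane, fell from 71.9, 68.4 and 69.7 CPM in Mock to 37.7, 46.7 and 39.7 in AOA (log2 fold change -0.76 ± 0.093, adjusted p = 2.9e-06) and from 78.03, 73.4 and 76.3 in HT-DNA to 27.5, 26.3 and 34.05 in HT-DNA+AOA (log2 fold change -1.38 ± 0.10, adjusted p = 1.5e-09). The groups did not overlap, and with aspartate the levels were 73.9, 79.1 and 84.1 and 76.8, 70.5 and 68.03 CPM. Herpud1, which brings substrates to HRD1, lay at 104, 101 and 103 CPM in Mock and 84.5, 109 and 87.6 in AOA (log2 fold change -0.13 ± 0.10, adjusted p = 0.32). After HT-DNA it fell from 113, 107 and 98.8 to 45.7, 48.4 and 61.8 CPM with AOA (log2 fold change -1.03 ± 0.11, adjusted p = 2.5e-07) and reached 147, 132 and 134 with aspartate (log2 fold change 1.41 ± 0.11, adjusted p = 7.3e-09). Herpud1, with both an ER stress element and an ATF4-type element in its promoter window, was thus lowest in the HT-DNA+AOA libraries.

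Ube2g2, a ubiquitin-conjugating enzyme of ERAD, went up in both single treatments. It lay at 73.3, 75.9 and 73.1 CPM in Mock, 137, 134 and 127 in AOA (log2 fold change 0.84 ± 0.10, adjusted p = 2.0e-06) and 135, 125 and 146 in HT-DNA (log2 fold change 0.87 ± 0.10, adjusted p = 4.3e-06). With both it lay at 135, 155 and 194 CPM, and with AOA and aspartate at 68.6, 82.6 and 72.3 CPM, which overlapped with Mock. Over the 19 membrane-side genes, 6 were higher (22.4% over all genes) and 3 lower (23.3%) with AOA, and 6 were higher (22.8%) and 4 lower (22.7%) with AOA after HT-DNA.

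On the cytosolic side, 7 of 24 genes were higher and 4 lower with AOA, against 22.4% and 23.3% over all genes. Yod1, a deubiquitinase that assists the p97 ATPase (Vcp), fell from 24.6, 24.7 and 21.5 to 15.4, 12.02 and 14.01 CPM with AOA (log2 fold change -0.78 ± 0.17, adjusted p = 0.00093) and rose to 41.5, 30.4 and 36.4 with aspartate, above Mock (log2 fold change 0.61 ± 0.16, adjusted p = 0.024), a call lost when any 1 of the 3 Mock libraries was left out. Atxn3, another deubiquitinase of that route, was lower with HT-DNA (log2 fold change -0.66 ± 0.12, adjusted p = 0.00023). Ubxn2a, a p97 cofactor, was higher with AOA after HT-DNA (log2 fold change 0.60 ± 0.12, adjusted p = 0.00038) and gave log2 fold change 0.10 ± 0.12, adjusted p = 0.53 without it.

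Genes of entry into the ER and of glycosylation moved in both directions. Of 11 translocon and signal sequence genes, 1 was higher and 2 were lower with AOA (22.4% and 23.3% over all genes), and 5 were higher and 4 lower with HT-DNA (24.2% and 24.0%). Ssr4, a subunit of the translocon-associated complex, rose with AOA (log2 fold change 0.53 ± 0.13, adjusted p = 0.0036), Sec61g, a channel subunit, with HT-DNA (log2 fold change 0.54 ± 0.14, adjusted p = 0.0044), and Sec62, a part of the posttranslational import machinery, fell with AOA (log2 fold change -0.37 ± 0.10, adjusted p = 0.0043). Of 11 genes of the oligosaccharyltransferase and the glucosidases, 7 were higher and 2 lower with AOA, against the same 22.4% and 23.3%. Mogs, the glucosidase that trims the first sugar of the glycan, was higher with AOA (log2 fold change 0.47 ± 0.09, adjusted p = 0.00031) and with HT-DNA (log2 fold change 0.72 ± 0.089, adjusted p = 8.6e-06), and Magt1, an oxidoreductase subunit of the transferase, was lower with both (log2 fold change -0.52 ± 0.14, adjusted p = 0.0045 and log2 fold change -0.67 ± 0.14, adjusted p = 0.00076).

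The lectin chaperones and mannosidases, which hold or discard glycoproteins, gave 2 higher and 3 lower of 12 with AOA (22.4% and 23.3% over all genes) and 3 higher and 6 lower with HT-DNA (24.2% and 24.0%). Man1c1, a mannosidase of the Golgi, fell with AOA in both backgrounds (log2 fold change -0.84 ± 0.071, adjusted p = 3.2e-08 and log2 fold change -0.60 ± 0.072, adjusted p = 1.5e-06). Edem3, which trims mannose to mark glycoproteins for ERAD, fell with HT-DNA from 57.9, 59.5 and 55.01 to 31.7, 39.1 and 32.98 CPM (log2 fold change -0.73 ± 0.14, adjusted p = 0.00051) and lay at 58.4, 57.6 and 54.9 in HT-DNA+AOA+Asp. Among the 12 COPII genes, which export cargo from the ER, 1 was higher and 4 were lower with AOA (22.4% and 23.3% over all genes), and none was higher and 3 were lower with AOA after HT-DNA (22.8% and 22.7%). Sec24d, a cargo adaptor, fell in both (log2 fold change -0.56 ± 0.066, adjusted p = 1.7e-06 and log2 fold change -0.94 ± 0.067, adjusted p = 2.1e-09), and Sec23a, a coat subunit, fell with HT-DNA (log2 fold change -0.68 ± 0.11, adjusted p = 8.8e-05). Of the 3 genes on no role list, Rrbp1 was called in no comparison and Tmem258, an oligosaccharyltransferase subunit, rose with HT-DNA (0.38). Gm49320, a predicted gene at no more than 2.35 CPM, was called for AOA after HT-DNA, but 99.1% of its 31-base words occur in other transcripts, and these 3 were named after their values were seen.

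**Figure D5:**
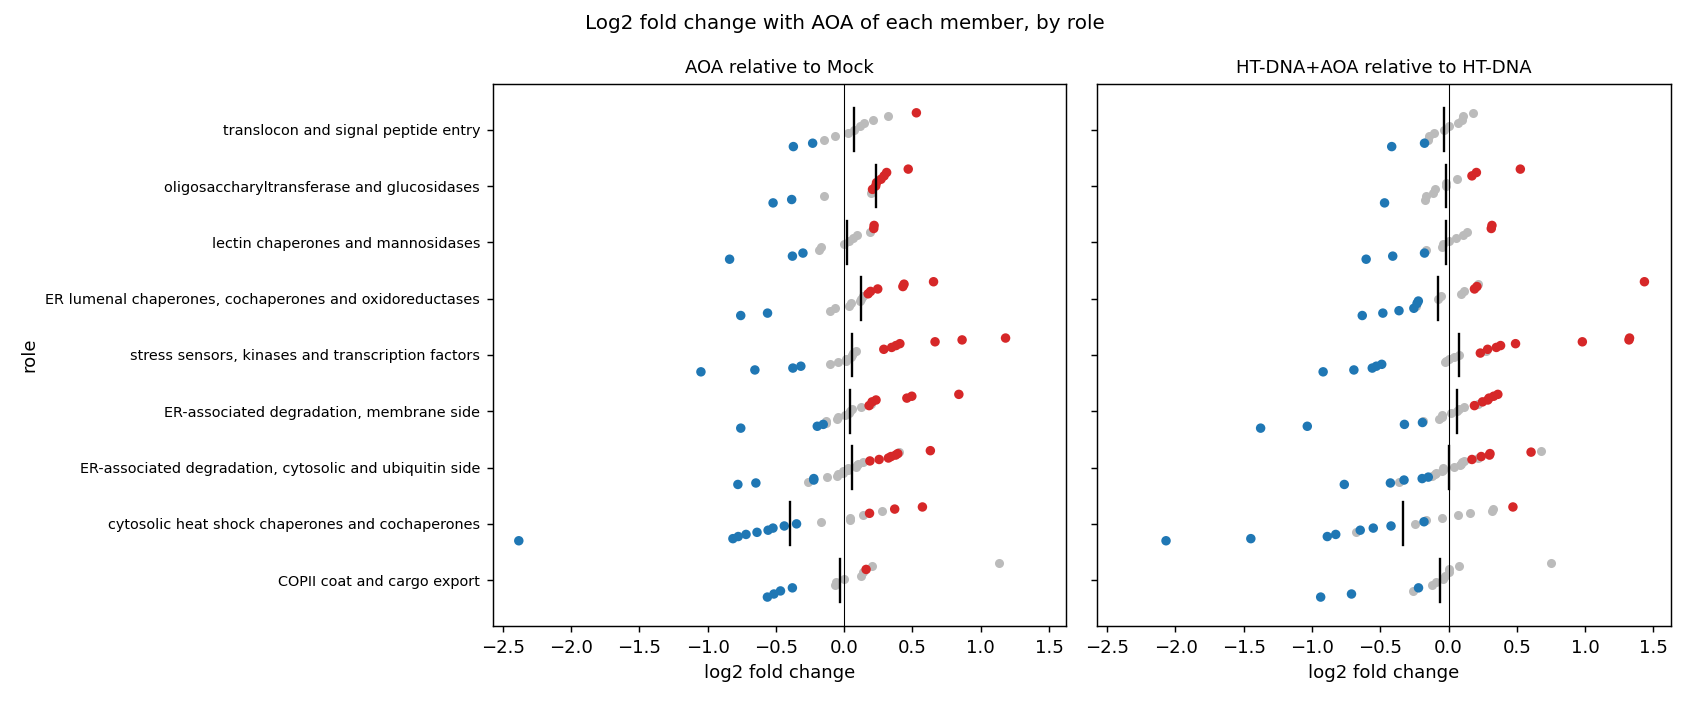
Log2 fold changes of the genes of each role with AOA relative to Mock and with HT-DNA+AOA relative to HT-DNA, with red points for genes called higher, blue for lower, grey for neither and a black line at the median of the role. Hspa1a, at under 1 CPM, is not drawn. The cytosolic heat shock chaperones have the lowest medians in both panels, -0.39 and -0.33.

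With AOA, in both backgrounds, the role whose median lay farthest from 0 was not lumenal. The pathway also holds 18 cytosolic heat shock chaperones and cochaperones, which fold proteins before and outside the ER and many of which are known as targets of the heat shock factor HSF1. With AOA 3 were higher (22.4% over all genes) and 10 lower (23.3%), with a median log2 fold change of -0.39, and of -0.53 with library totals. With AOA after HT-DNA 1 was higher (22.8% over all genes) and 8 lower (22.7%), with a median of -0.33. With aspartate relative to AOA 10 were higher (23.5%) and 2 lower (22.8%), with a median of 0.37. HT-DNA alone gave 9 higher (24.2%) and 3 lower (24.0%), with a median of 0.20, where the lectin chaperones and mannosidases had a median farther from 0 (-0.35).

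Hspa1b, the stress-induced HSP70, lay at 9.82, 8.29 and 10.2 CPM in Mock, 1.97, 1.46 and 2.04 in AOA (log2 fold change -2.38 ± 0.20, adjusted p = 3.7e-08) and 10.8, 10.47 and 14.1 in AOA+Asp (log2 fold change 2.71 ± 0.20, adjusted p = 8.3e-09). In HT-DNA–transfected cells it lay at 8.24, 7.01 and 8.60 CPM, then 1.57, 1.44 and 2.74 with AOA (log2 fold change -2.07 ± 0.21, adjusted p = 1.6e-07) and 8.37, 6.64 and 6.58 with aspartate. The AOA groups without aspartate lay below every other group. Its near copy Hspa1a was at 0.592, 0.360 and 0.617 CPM in Mock and 0, 0.129 and 0 in AOA, too low for a fold, and 68.00% of the 31-base words of Hspa1b and 65.4% of those of Hspa1a occur in other transcripts, so the pair cannot be separated with certainty.

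Hspa8 (HSC70), the constitutive family member, fell from 1402, 1427 and 1421 to 793, 882 and 807 CPM with AOA (log2 fold change -0.78 ± 0.063, adjusted p = 2.0e-08), rose to 2235, 2208 and 2182 with HT-DNA (log2 fold change 0.64 ± 0.063, adjusted p = 9.1e-07) and fell to 778, 801 and 849.9 with both (log2 fold change -1.45 ± 0.064, adjusted p = 3.2e-12), and it too shares sequence (59.4% of its words). Hspa4l, an HSP110-type exchange factor, lay at 63.4, 55.5 and 61.1 CPM in Mock, 33.2, 34.6 and 34.6 in AOA and 145, 106 and 142 in AOA+Asp, and was thus below Mock with AOA (log2 fold change -0.82 ± 0.16, adjusted p = 0.00043) and above it with aspartate (log2 fold change 1.13 ± 0.16, adjusted p = 0.00015). HT-DNA lowered it to 22.1, 28.5 and 24.02 CPM (log2 fold change -1.27 ± 0.16, adjusted p = 1.3e-05). Dnajb1 and Dnajb2, HSP40 cochaperones, fell with AOA (-0.56 and -0.64), and Dnajb2 with aspartate overlapped with AOA alone (log2 fold change 0.033 ± 0.11, adjusted p = 0.84) and was below Mock (log2 fold change -0.61 ± 0.11, adjusted p = 0.0024). Bag2, an HSP70 cochaperone, was the other gene lower in AOA+Asp than in Mock (log2 fold change -0.23 ± 0.063, adjusted p = 0.031, lost when any 1 of the 3 Mock libraries was left out), and Hspbp1, an HSP70 exchange factor, rose with HT-DNA (log2 fold change 0.63 ± 0.14, adjusted p = 0.0013).

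Genes outside the pathway were read beside it. Of 20 further targets of the unfolded protein response, 9 were higher and 6 lower with AOA (22.4% and 23.3% over all genes), with a positive median (0.05) but a negative mean level (-0.198 to -0.185 relative to Mock), and the median turned to -0.08 with library totals. With AOA after HT-DNA 1 was higher and 9 were lower (-0.17, against 22.8% and 22.7% called over all genes), and with aspartate relative to HT-DNA+AOA 11 were higher and none was lower (23.7% and 23.9%). The first 4 of that list, Creld2, Manf, Sdf2l1 and Dnajb9, which encode ER-resident folding factors, gave 0.21, -0.0052, -0.032 and 0.22 with AOA alone, of which Creld2 and Dnajb9 were called higher. After HT-DNA they gave -0.27, -0.53, -0.81 and -0.61, all called lower. Of 14 tested heat shock response genes outside the pathway, 5 were higher and 6 lower with AOA (22.4% and 23.3% over all genes), and 3 were higher and 6 lower with AOA after HT-DNA (22.8% and 22.7%).

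The AOA effects with and without HT-DNA were compared directly. Those of AOA relative to Mock and of HT-DNA+AOA relative to HT-DNA share no library. Of the 74 and 66 genes called, 36 were called in the same direction in both (48.6% and 54.5% of each list, against 58.0% and 58.3% over all genes), 17 of them higher and 19 lower, and 4 in opposite directions (5.41% and 6.06% of each list, against 2.64% and 2.66% over all genes), which were Calr, Hsp90ab1, Txndc5 and Ubxn4, named after their values were seen. Relative to the Mock mean, log2 levels of Calr were 0.303, 0.223 and 0.156 in HT-DNA and -0.0918, 0.0252 and 0.210 in HT-DNA+AOA. These groups overlapped, whereas those of Hsp90ab1 did not. For aspartate over AOA, 61 genes were called the same way with and without HT-DNA (81.3% and 75.3%, against 76.1% and 73.9% over all genes), and none in opposite directions (0.394% and 0.383% over all genes).

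The interaction, which tests whether the AOA effect differed between cells with and without HT-DNA, called 31 genes, 7 (4.86%) higher (7.23% over all genes) and 24 (16.7%) lower (8.26% over all genes). Lower means that AOA did less to raise, or more to lower, the gene after HT-DNA. By role, the lumenal chaperones gave 1 higher and 5 lower, the oligosaccharyltransferase and glucosidase genes none higher and 4 lower (2 and 5 without HT-DNA+AOA replicate 3), and, outside the pathway, the amino acid response 8 higher and 2 lower (8 and 7 without HT-DNA+AOA replicate 3). Herpud1 (difference of log2 fold changes -0.90 ± 0.15, adjusted p = 0.00094), Hspa8 (difference of log2 fold changes -0.67 ± 0.089, adjusted p = 0.00011), Sil1 (difference of log2 fold changes -0.67 ± 0.18, adjusted p = 0.019) and Xbp1 (difference of log2 fold changes -0.65 ± 0.10, adjusted p = 0.00035) had the largest negative values. Hspa4l (difference of log2 fold changes 1.13 ± 0.23, adjusted p = 0.0044) and Ero1a (difference of log2 fold changes 0.78 ± 0.18, adjusted p = 0.0088) had the largest positive ones, both genes that HT-DNA alone lowered. The call for Sil1 was lost without Mock replicate 1, AOA replicate 2 or HT-DNA replicate 3. The split was 14 higher and 16 lower with library totals (1388 and 763 over all genes). It was 3 and 37 after correcting for GC content and transcript length (1083 and 1550). Without HT-DNA+AOA replicate 3 it was 28 and 46 (2558 and 2862), and without its replicate 1 it was 4 and 18 (685 and 916). Leaving out AOA replicate 2, HT-DNA replicate 1 or 3, HT-DNA+AOA replicate 2 or Mock replicate 1 left 17 to 19 genes. Over all genes these fits called 524 to 708 higher and 621 to 696 lower.

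In AOA+Asp, 15 genes differed from Mock, 13 (9.03%) higher and 2 (1.39%) lower, against 2.52% and 3.95% over all genes. Of the 29 amino acid response genes, 3 were higher and none was lower. The 13 higher ones were the lumenal genes Hspa5, Hsp90b1, Pdia3, Pdia4, Hyou1 and Dnajc3, the cytosolic chaperones Hspa4l, Hsp90aa1 and Dnaja1, and Herpud1, Ubxn4, Yod1 and Sec62, of which Hsp90aa1, Dnaja1 and Ubxn4 were named after their values were seen. Among the 13, Hspa5 and Pdia4 were called higher with AOA alone, and Dnajc3, Hspa4l, Yod1 and Sec62 lower. As no group received aspartate alone, an effect of 20 mM aspartate and a remaining effect of AOA cannot be told apart. The count was 5 without Mock replicate 1 or Mock replicate 2, 6 without AOA+Asp replicate 1, 8 without AOA+Asp replicate 3 and 9 without Mock replicate 3, and it was 34 with only the libraries compared.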

How the data were processed

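Total RNA of 18 L929 cultures (6 groups, 3 each) was extracted with TRIzol and sequenced. The authors deposited estimated counts per gene, which are not whole in 11.6% of values and were rounded here. The aligner, counting program and genome build are not given in the sources used here. The authors' group means in the same table were not used. Pathway membership was read from the table's annotation column. Genes were filtered with filterByExpr (minimum count 10, minimum total 15), scaled by TMM (factors 0.918 to 1.07) and tested with edgeR 4.0.16 in R 4.3.3, by robust quasi-likelihood F-tests over all 18 libraries in 1 model without covariates, with Benjamini-Hochberg adjustment over 14263 genes. The script was tested on simulated data. The planned design assumed whole counts.

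Reads without molecular identifiers are not independent molecules, so depth sets only the counting error. The genes, gene lists and role lists were chosen with earlier results of these data known. Genes were named by rule: all sensors and lumenal chaperones, the 4 largest called rises and falls of each result at a mean of at least 5 CPM, and the largest called change with AOA and with HT-DNA in each other role. Genes outside it are named only for low counts or a promoter motif, or are marked as named after their values were seen. Alternatives were RLE scaling, library totals, other count filters, DESeq2 1.42.0, a minimum of 1 on the log2 scale, a fit on the compared libraries alone, a replicate block, a correction for GC content and transcript length (GENCODE M21, loess span 0.3) and leaving out each library. Sequence shared between transcripts was counted as 31-base words in GENCODE M21.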

Additional observations from a re-analysis of the deposited data

Results flagged for a closer look

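The AOA effect differed between cells with and without HT-DNA, by the interaction term of edgeR's quasi-likelihood test, for 31 of the 144 ER protein processing genes. Of these, 7 (4.86%) were higher and 24 (16.7%) lower, against 7.23% and 8.26% over all genes tested. The split was 14 higher and 16 lower with library totals (1388 and 763 over all genes). It was 28 and 46 without HT-DNA+AOA replicate 3 (2558 and 2862), and 3 and 14 without AOA replicate 2 (524 and 621). Among the genes named by rule, the difference in log2 fold change (with HT-DNA minus without) was positive for Hspa4l (1.13), Ero1a (0.78), Ubxn2a (0.51) and Sec62 (0.48). It was negative for Herpud1 (-0.90), Hspa8 (-0.67), Sil1 (-0.67) and Xbp1 (-0.65). The groups of 3 cultures are too small for a test of single outlying libraries.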

How the results depend on the processing

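The count of genes called stayed within 1.5 times that reported under RLE scaling, library totals, other count filters and DESeq2, with the exception of AOA+Asp relative to Mock (15 genes), which gave 25 with DESeq2 and 34 with the correction for GC content and transcript length. Asking for a log2 fold change of at least 1 left 4 (AOA relative to Mock), 10 (AOA+Asp relative to AOA), 1 (AOA+Asp relative to Mock), 2 (HT-DNA relative to Mock), 8 (HT-DNA+AOA relative to HT-DNA), 12 (HT-DNA+AOA+Asp relative to HT-DNA+AOA), 1 (HT-DNA+AOA+Asp relative to HT-DNA) and 1 (interaction). Over all genes tested it left 1067, 1025, 72, 623, 1461, 1101, 486 and 286 in the same order. Those called without it numbered 6516, 6600, 923, 6879, 6477, 6797, 6649 and 2209. With only the libraries compared, the spread comes from fewer samples and is not shared with the other groups. The counts were then 34 for AOA+Asp relative to Mock and 35 for HT-DNA+AOA relative to HT-DNA. They were 49 for HT-DNA+AOA+Asp relative to HT-DNA+AOA and 16 for the interaction. Higher and lower calls were 51 and 37 for AOA relative to Mock and 46 and 34 for AOA+Asp relative to AOA. They were 51 and 43 for HT-DNA relative to Mock and 53 and 40 for HT-DNA+AOA+Asp relative to HT-DNA. Counts thus fell where HT-DNA+AOA was compared and rose elsewhere, as they did over all genes tested. Leaving out 1 library gave 5 to 11 for AOA+Asp relative to Mock (5 without Mock replicate 1 or 2) and 17 to 74 for the interaction (17 without AOA replicate 2, 74 without HT-DNA+AOA replicate 3), and the cause was not tested. Over all genes, the interaction called 524 higher and 621 lower without AOA replicate 2. Without HT-DNA+AOA replicate 3 it called 2558 and 2862. Same-numbered samples did not deviate together (correlations -0.104 to 0.134 over 21 pairs), so the numbers do not pair the samples, and the replicate block called 73 genes with AOA against Mock, 13 in AOA+Asp against Mock, 64 for HT-DNA+AOA relative to HT-DNA and 33 for the interaction.

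For 57 named genes, 254 of 456 results were called. Of 3656 alternative values of these, 3351 kept direction and call, 300 lost the call and 5 reversed, and of 3052 of the uncalled results 188 gained a call and 17 reversed. All reversals came with the correction for GC content and length. They were, for HT-DNA relative to Mock, Atf6b (-0.025), Bcl2 (0.072), Capn1 (-0.0047), Dnajc3 (0.19), Herpud1 (-0.20), Mapk8 (0.36) and Xbp1 (-0.12). For HT-DNA+AOA relative to HT-DNA they were Atf6b (0.30), Edem3 (-0.17) and Mogs (0.32). For HT-DNA+AOA+Asp relative to HT-DNA they were Atf6 (-0.26), Atf6b (0.12), Man1c1 (0.25), Mapk8 (-0.27), P4hb (0.16), Sil1 (0.36) and Syvn1 (0.19). For AOA+Asp relative to AOA they were Mapk8 (-0.14), Mapk9 (-0.16) and Xbp1 (0.17), for HT-DNA+AOA+Asp relative to HT-DNA+AOA Mbtps1 (-0.19), and for the interaction Mapk8 (-0.29). Fewer reads limit Hspa1a, Gm49320, Cryab and Sec31b, for which no fold is given.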
